A study of Mus musculus with 12 samples.

Results

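Tight junctions seal the space between neighbouring epithelial cells near the lumen, and their plaque of scaffold proteins ties the membrane proteins of the seal to the actin cytoskeleton. The genes described here encode 3 of the plaque proteins and 4 of the membrane proteins. Tjp1 encodes ZO-1, a scaffold that binds claudins, occludin and actin, Tjp3 encodes its relative ZO-3, and Cgn encodes cingulin, a plaque protein that binds ZO proteins and myosin. Ocln encodes occludin, a protein with 4 membrane spans, and Marveld2 (tricellulin) and Marveld3 encode its relatives in the MARVEL family. Tricellulin gathers where 3 cells meet. F11r encodes JAM-A, an immunoglobulin-like adhesion protein of the junction. In the colon these genes are used mainly by the epithelium, but ZO-1 and JAM-A are also made by endothelial cells. The 7 genes were picked by name, with earlier results of these data known, out of the 54532 genes of the count table. All 7 passed the filter on low counts, which kept 16904 genes.

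RNA-Seq covered 12 libraries from pieces of colonic tissue of male wild-type C57BL/6J mice, 5 weeks old at the start, in 4 groups of 3. Acute colitis was induced with dextran sodium sulfate (DSS), which injures the colonic epithelium, in the model group and not in the control group. The Rhy group received DSS and the alkaloid rhynchophylline (Rhy). The DXM group received DSS and the glucocorticoid dexamethasone (DXM) at 4 mg/kg. The labels list Rhy at 2, 4 and 8 mg/kg but not which of these doses the sequenced mice received. Levels are in CPM, reads of a gene over the library size after the TMM correction of edgeR, or, between genes, as FPKM, which divides by gene length as well.

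The libraries held 14346478 to 17749716 counts in all, and the 7 genes had 487 to 7360 counts each in a library. All 13 epithelial markers were expressed in each library, from 56.47 CPM for the lowest value of Cdx2 to 9534 CPM for the highest value of Krt8. Each library thus held epithelium, but these markers do not tell colon from other parts of the gut. Model 1 and model 2 stood apart as a nearly equal pair, with a common dispersion (the variance beyond counting noise in edgeR) of 0.00201, where the remaining 65 pairs of libraries had 0.0604 to 0.351. Their counts were not equal within counting noise (mean chi-square of 2.855 per gene over 15996 genes), and both were kept as the labels give them. Libraries of the same animal can also differ by more than counting noise, so whether model 1 and model 2 came from separate mice cannot be told from these counts, and the spread of the model group may be too small. With model 1 and model 2 as 1 library, 2 of the 7 genes had an unadjusted p under 0.05 between model and control (Tjp1 and Marveld3), 0 between Rhy and model, and 2 between DXM and model (F11r and Marveld2). Over all genes the numbers were 866, 283 and 736 in that setting, beside 1626, 628 and 1300 with model 1 and model 2 kept apart. Hoxb13, a marker of the distal colon, was below 1.5 CPM in control 3, model 3 and Rhy 1 and above 71 CPM in the other 9 libraries. The DXM group alone thus held no library low in Hoxb13 (195.3 to 235.9 CPM). The share of mitochondrial counts was 6.331% to 25.68%. In bulk tissue, fewer cells of a type and less RNA per cell cannot be told apart.

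All 7 genes kept a single entry in the deposited table, with coordinates on GRCm38 that equal GENCODE M21. Tjp1 (ENSMUSG00000030516) lies on chromosome 7 from 65296165 to 65527781, Tjp3 (ENSMUSG00000034917) on chromosome 10 from 81273207 to 81291581, and Cgn (ENSMUSG00000068876) on chromosome 3 from 94760069 to 94786492. F11r (ENSMUSG00000038235) lies on chromosome 1 from 171437535 to 171464603, and Marveld3 (ENSMUSG00000001672) on chromosome 8 from 109947914 to 109962203. Ocln (ENSMUSG00000021638, chromosome 13 from 100496507 to 100552718) and Marveld2 (ENSMUSG00000021636, chromosome 13 from 100595957 to 100616971) are neighbours on the minus strand, 43238 bases apart, with the 2 predicted genes Gm48596 and Gm8847 between them. Tjp3 shares 40 exon bases with Apba3 on the opposite strand. Since the strand setting of the counting is not stated, a part of the reads there could belong to either gene, but Apba3 had 6505 counts in all libraries together and Tjp3 had 52492.

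The study asked about the aryl hydrocarbon receptor (AhR) and the nuclear receptor NR4A1 as well as junction proteins, so the promoters were searched for the motifs of these factors. RefSeq windows of 300 bases on GRCm38.p6, from 250 bases before the start of transcription to 50 bases after it, were held for 6 of the 7 genes, with 9 windows in all. Marveld3 had none. The 250 bases before the start are shown for Tjp1 and Ocln, the genes of ZO-1 and occludin. These are the members that were also followed as proteins. Both lie on the minus strand and are written 5′ to 3′, Tjp1 at chr7:65371245-65371494 and Ocln at chr13:100552719-100552968. Capitals mark the core of the AhR response element, GCGTG, or its reverse complement CACGC. In Tjp1 the motif spans the start, so only its first 2 letters stand at the end of the run.
Tjp1: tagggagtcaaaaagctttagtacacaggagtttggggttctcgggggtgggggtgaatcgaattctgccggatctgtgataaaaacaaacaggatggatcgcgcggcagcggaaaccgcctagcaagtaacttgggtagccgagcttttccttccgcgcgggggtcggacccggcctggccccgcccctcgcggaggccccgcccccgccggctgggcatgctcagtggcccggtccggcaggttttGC
Ocln: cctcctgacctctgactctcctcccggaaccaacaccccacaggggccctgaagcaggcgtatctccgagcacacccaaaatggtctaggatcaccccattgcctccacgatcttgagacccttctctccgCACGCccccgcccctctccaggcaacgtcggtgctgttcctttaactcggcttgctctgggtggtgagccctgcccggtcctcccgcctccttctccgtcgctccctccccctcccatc
The run of Tjp1 had 63.2% G and C and that of Ocln 64.0%. The Tjp1 start in RefSeq is internal, since the annotated gene begins further upstream.

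The AhR core GCGTG stood in the windows of 5 of the 6 genes, on either strand: Tjp1, Ocln, Marveld2, F11r and Cgn. It stands in 32.4% of the 32851 promoter windows of the mouse, so a match in a single window is common. That share counts windows and not genes. Tjp3, Ocln and Marveld2 had 2 windows each, so it is not a background for a count of genes. In F11r it began 39 bases before the start, and in Cgn 34 bases after it. The E-box CAGGTG, which Snail and ZEB factors bind, stood in the windows of Tjp3, Ocln, Marveld2 and F11r, and in 20.2% of all windows, again a share per window. None of the 9 windows held AAAGGTCA, the NR4A element NBRE (1.51% of all windows), the glucocorticoid response element (0.475%), or AACCGGTT, the grainyhead-like site (0.146%). These are matches of letters in short windows, which do not show binding or its absence.

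Per gene length, Tjp3 and F11r were the highest of the 7 genes. Their median FPKM over the 12 libraries was 71.7 and 71.33, and their ranges of 42.5 to 148.9 and 40.94 to 104.4 FPKM overlapped. Marveld3 (median 24.98 FPKM, range 15.83 to 35.09) and Cgn (24.03 FPKM, range 15.64 to 39.49) came next and did not differ beyond their spread. Ocln (15.23 FPKM), Tjp1 (13.95 FPKM) and Marveld2 (13.14 FPKM) were the lowest, again with overlapping ranges. No library of Marveld3 or Cgn reached the lowest FPKM of Tjp3 or F11r, whereas the ranges of Cgn and Ocln overlapped. The mean FPKM of the 7 genes stood at the 78.3rd to 95.5th percentile of the genes tested.

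**Figure D1:**
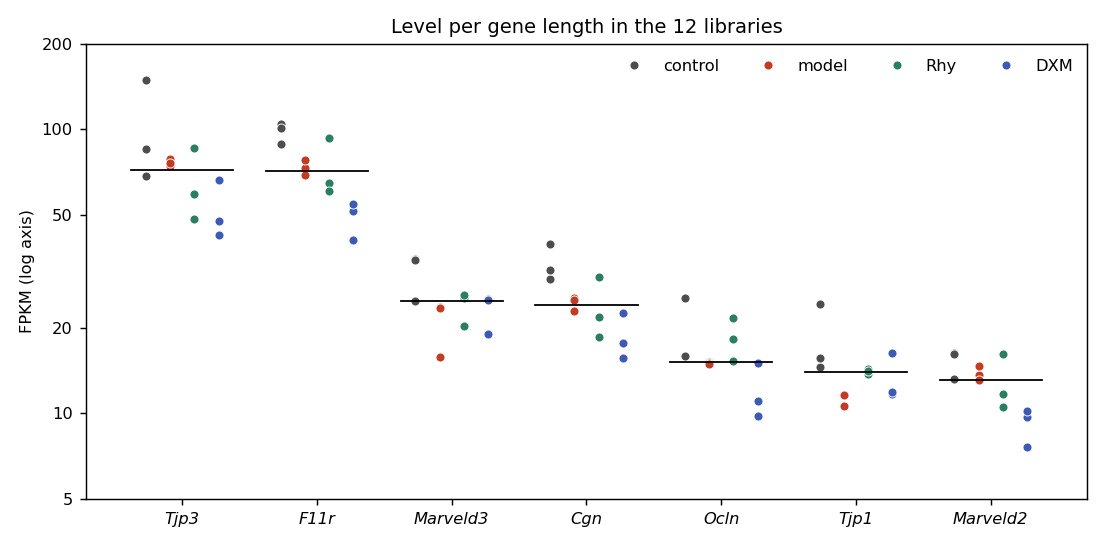
FPKM on a log axis of the 7 genes in the 12 libraries, coloured by group, with a black line at the median of each gene. Tjp3 and F11r, with medians of 71.7 and 71.33 FPKM, sit above the other 5 genes, whose highest value is 39.49 FPKM.

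The first comparison asked how DSS alone changed the junction genes. All 7 genes had a lower fitted level in the model group than in the control group, with log2 fold changes of -0.08 to -0.63. Tjp1, Marveld3 and Ocln were the lowest relative to control. For 5 genes, Tjp1, Ocln, Marveld3, F11r and Cgn, the 3 model libraries were all below the 3 control libraries. None passed an adjusted p of 0.05.

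Tjp1 was 113.7, 186.4 and 121.5 CPM in the control libraries and 93.60, 93.62 and 84.77 CPM in the model libraries. The groups did not overlap, but control 2 stood far above the other control libraries. The mean was 140.5 ± 39.87 CPM (SD, n = 3) in the control group and 90.66 ± 5.105 CPM (SD, n = 3) in the model group. The log2 fold change was -0.63 ± 0.21 (SE, edgeR's quasi-likelihood test, adjusted p = 0.479, unadjusted p = 0.0112), a change of -35.5% with a 95% interval of -53.1% to -11.3%. The exact two-sided permutation test of the group means of log2 CPM gave p = 0.1, the smallest that 3 against 3 allows. This test takes model 1 and model 2 as separate samples, as do all statements on overlap with the model libraries. Whether they are separate cannot be told.

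Ocln was 67.17, 106.1 and 106.4 CPM in the control libraries and 65.96, 65.53 and 64.57 CPM in the model libraries. The model libraries were nearly equal, and control 1 was only slightly above them. The log2 fold change was -0.51 ± 0.22 (SE, edgeR adjusted p = 0.511, unadjusted p = 0.0409), a change of -29.9% with a 95% interval of -50% to -1.7%. The exact permutation test gave p = 0.1.

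Marveld3 was 114.9, 111.9 and 80.69 CPM in the control libraries and 80.25, 79.54 and 53.14 CPM in the model libraries. Control 3 and model 1 were almost equal, so the separation was narrow. Its log2 fold change was -0.53 ± 0.22 (SE, edgeR adjusted p = 0.493, unadjusted p = 0.0333). Marveld2, the other occludin relative, was 44.40, 54.24 and 54.12 CPM in the control libraries against 47.82, 45.75 and 50.69 CPM in the model libraries. The groups overlapped, and the log2 fold change was -0.08 ± 0.19 (SE, edgeR adjusted p = 0.914, 95% interval -0.5 to 0.34).

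F11r was 277.0, 265.9 and 234.2 CPM in the control libraries and 201.6, 190.8 and 212.1 CPM in the model libraries, with a log2 fold change of -0.36 ± 0.20 (SE, edgeR adjusted p = 0.585). Cgn was 179.0, 234.4 and 190.6 CPM in the control libraries and 159.2, 155.9 and 141.5 CPM in the model libraries, with a log2 fold change of -0.40 ± 0.22 (SE, edgeR adjusted p = 0.573). Each had its control and model libraries apart. Tjp3 was 551.1, 311.7 and 252.7 CPM in the control libraries and 303.1, 286.3 and 289.7 CPM in the model libraries, so control 1 was the highest of all 12 libraries and the groups overlapped. Without control 1 the log2 fold change of Tjp3 turned from -0.34 to 0.05.

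Over all 16904 genes tested, edgeR called 0% at an adjusted p under 0.05 between these groups, the smallest being 0.459. At an unadjusted p under 0.05, 3 of the 7 genes (Tjp1, Ocln and Marveld3) were lower, beside 9.62% of all genes in either direction, and 5 of 7 were apart, beside 17% of all genes. DESeq2 and limma also called 0 of the 7 genes at an adjusted p under 0.05. The median log2 fold change was -0.40 over the 7 genes and 0.01 over all genes. The count at an unadjusted p under 0.05 rested on single libraries: it was 0 without control 2 and 1 without model 3.

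**Figure D2:**
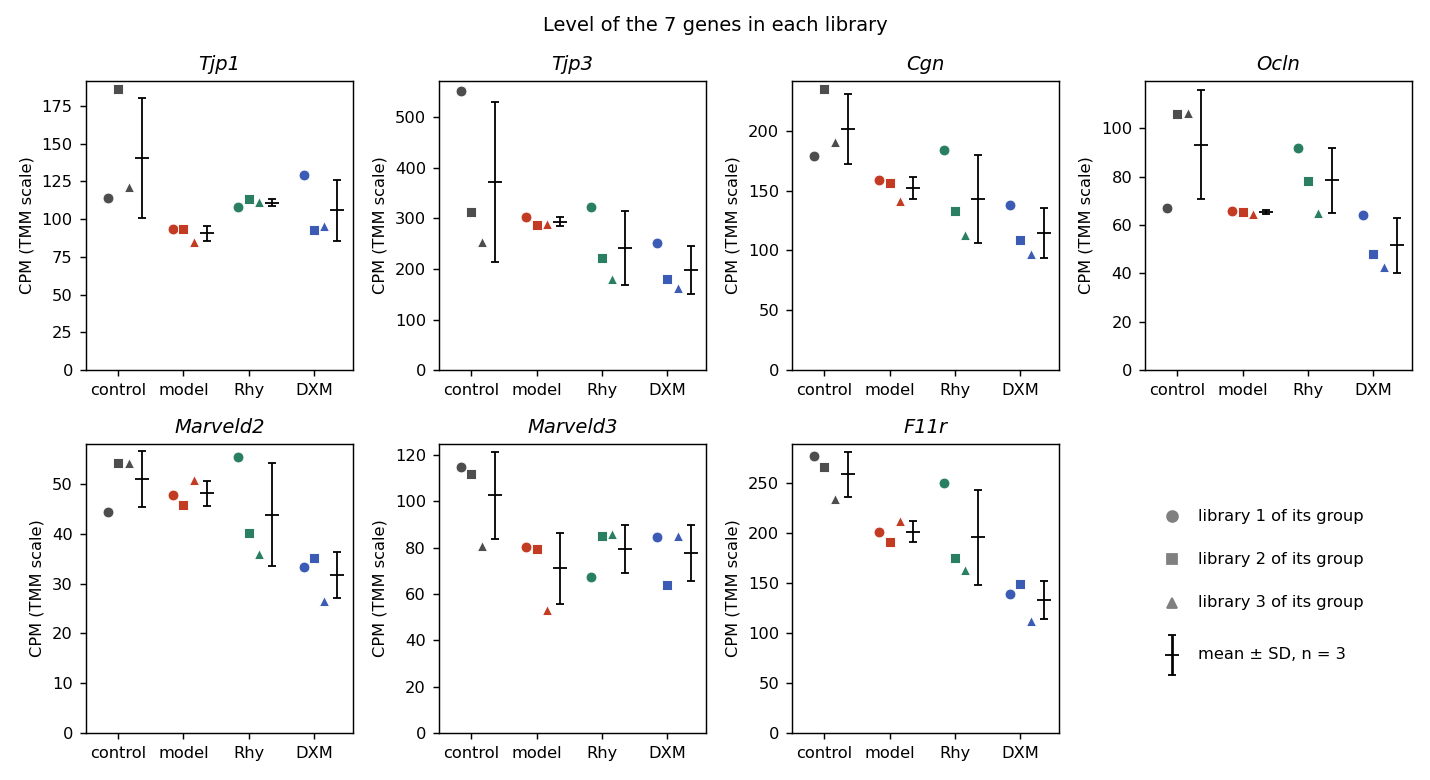
CPM of the 7 genes in each of the 12 libraries by group, with symbols for library 1, 2 and 3 of a group and bars for the mean ± SD. The model libraries lie below the control libraries for Tjp1, Cgn, Ocln, Marveld3 and F11r, and the DXM libraries lie below the model libraries for Tjp3, Cgn, Ocln, Marveld2 and F11r.

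The second comparison asked whether Rhy changed the junction genes in mice given DSS. None of the 7 genes reached an unadjusted p of 0.05, and the interval of each included 0. Tjp1 was the only member whose Rhy libraries did not overlap the model libraries, at 22.4% higher, but 1 of 7 is close to the 11.5% of all genes that did not overlap. Tjp1, Ocln and Marveld3 had a higher fitted level with Rhy and Tjp3, Marveld2, F11r and Cgn a lower level. The direction was not stable for F11r, which came to 0.03, 0.04 and 0.08 on the log2 scale without model 3, Rhy 2 or Rhy 3, and for Cgn, which came to 0.06 without Rhy 3.

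Tjp1 was 108.3, 113.2 and 111.3 CPM in the Rhy libraries, a mean of 110.9 ± 2.488 CPM (SD, n = 3), and all were above the highest model library at 93.62 CPM. Its log2 fold change stayed at 0.27 to 0.32 under all alternatives run. The 95% interval ran from -11% to 68.2%. The unadjusted p was 0.191 in edgeR's quasi-likelihood test (adjusted p = 1), and the exact permutation test gave p = 0.1. Against the control group the Rhy libraries were all lower, since the lowest control library was at 113.7 CPM.

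Ocln was 92.03, 78.30 and 65.18 CPM in the Rhy libraries. Rhy 3 lay within the model range, and the other two were above it. The change of 20.1% had a 95% interval of -14.3% to 68.3% (edgeR adjusted p = 1), and the exact permutation test gave p = 0.3. Marveld3 was 67.46, 84.89 and 86.06 CPM, with a log2 fold change of 0.16 (interval -0.32 to 0.64).

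In the other 4 genes, Rhy 1 stood above the other libraries of its group. F11r was 250.4, 175.1 and 162.8 CPM, Cgn 183.8, 133.0 and 112.7 CPM, Marveld2 55.48, 40.10 and 35.87 CPM, and Tjp3 322.7, 222.4 and 180.3 CPM. For each of these genes, Rhy 1 was above all model libraries and both other Rhy libraries were below all of them. Rhy 1 was also the library with the lowest Hoxb13 (0 CPM) and, at 23.83%, the highest mitochondrial share of its group, and its 7 B cell markers summed to 1.627 CPM. The part of these in the levels was tested only for Hoxb13 as a covariate, which left the 7 directions as they were.

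Between the Rhy and model groups, edgeR called 0% of all genes at an adjusted p under 0.05, the smallest being 0.964. At an unadjusted p under 0.05, 0 of the 7 genes stood beside 3.72% of all genes. DESeq2 and limma called 0 of the 7 at an adjusted p under 0.05. The median log2 fold change was -0.04 over the 7 genes and -0.01 over all genes.

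The third comparison asked whether DXM changed the junction genes in mice given DSS. With DXM, 5 of the 7 genes were lower than with DSS alone and their libraries did not overlap: F11r, Marveld2, Tjp3, Cgn and Ocln. Tjp1 and Marveld3 instead had a slightly higher fitted level, with groups that overlapped. None passed an adjusted p of 0.05.

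F11r was 139.0, 149.0 and 112.2 CPM in the DXM libraries, a mean of 133.4 ± 19.01 CPM (SD, n = 3) against 201.5 ± 10.65 CPM (SD, n = 3) in the model group. The lowest model library, at 190.8 CPM, was well above the highest DXM library. The log2 fold change was -0.60 ± 0.20 (SE, edgeR adjusted p = 0.622, unadjusted p = 0.012), a change of -33.8% with a 95% interval of -51.1% to -10.3%.

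Marveld2 was 33.39, 35.19 and 26.44 CPM in the DXM libraries, all below the 45.75 CPM of the lowest model library. The log2 fold change was -0.60 ± 0.19 (SE, edgeR adjusted p = 0.622, unadjusted p = 0.00923), with a 95% interval of -50.9% to -11.7%. Marveld2 thus had the smallest difference of the 7 between model and control and the smallest unadjusted p between DXM and model.

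Ocln was 64.32, 47.91 and 42.59 CPM in the DXM libraries. DXM 1 was just below the lowest model library at 64.57 CPM, and the other two were further down. The log2 fold change was -0.34 ± 0.22 (SE, edgeR adjusted p = 0.706), and the exact permutation test gave p = 0.1. Cgn was 138.0, 109.1 and 96.93 CPM (log2 fold change -0.41 ± 0.22 SE, edgeR adjusted p = 0.668), and Tjp3 was 250.9, 180.2 and 162.5 CPM (log2 fold change -0.57 ± 0.31 SE, edgeR adjusted p = 0.669). In all 3 genes DXM 1 was the closest to the model group and DXM 3 the farthest.

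Tjp1 was 129.3, 93.13 and 95.56 CPM in the DXM libraries, so DXM 1 and DXM 3 were above all model libraries and DXM 2 lay among them. The log2 fold change was 0.23 ± 0.21 (SE, edgeR adjusted p = 0.793), with a 95% interval of -14.9% to 60.6%, and the exact permutation test gave p = 0.3. Marveld3 was 84.41, 63.72 and 84.98 CPM, a log2 fold change of 0.13 (interval -0.35 to 0.61). Whether the difference of Tjp1 departs from that of F11r was not tested.

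Between the DXM and model groups, edgeR called 0% of all genes at an adjusted p under 0.05 (smallest 0.622). DESeq2 and limma called 0 of the 7 genes. At an unadjusted p under 0.05, 2 of 7 genes (F11r and Marveld2) were lower, beside 7.69% of all genes, and 5 of 7 were apart, beside 22.6% of all genes. The median log2 fold change was -0.41 over the 7 genes and -0.01 over all genes. The count of 2 was 5 without DXM 1 and 1 without DXM 3.

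The DXM and Rhy groups were also set against the control group, a choice made after the values were seen. These comparisons share the control libraries with the first, and each is given by its own values. With DXM, all 7 genes were below control, and F11r, Tjp3, Ocln, Cgn and Marveld2 had no overlap with the control libraries. F11r had the largest difference, with a log2 fold change of -0.96 ± 0.20 (SE, edgeR adjusted p = 0.128, unadjusted p = 0.000501), or -48.5% with a 95% interval of -62% to -30.1%. The change was -46.8% for Tjp3, -44.7% for Ocln, -43% for Cgn and -37.8% for Marveld2. With the epithelial marker mean as a covariate, the log2 fold change of Tjp3 turned to 0.38 and the number of members at an unadjusted p under 0.05 went from 5 to 0. Over all genes that number went from 3189 to 1509. Tjp1 (-24.6%) and Marveld3 (-24.2%) had intervals that included 0.

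At an unadjusted p under 0.05, 5 of the 7 genes were lower with DXM than in control, beside 18.9% of all genes, and 5 of 7 were apart, beside 18.7% of all genes. Lower at that p were also 8 of 13 epithelial markers (median -0.52 on the log2 scale), with none higher. The same held for 9 of 17 adherens junction and desmosome genes (median -0.57). Of 27 other scaffold and polarity genes, 9 were lower and 1 higher. Other membrane proteins (4 lower, 3 higher of 10) and claudins (3 and 3 of 12) were mixed. At an adjusted p under 0.05 edgeR called 0% of all genes (smallest adjusted p 0.0971), whereas DESeq2 called 4 of the 7, Ocln, Marveld2, F11r and Cgn, among 1051 genes. limma called 0 of the 7. The median log2 fold change was -0.81 over the 7 genes and 0.06 over all genes.

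With Rhy, all 7 fitted levels were also below control, by a median of -0.37 on the log2 scale against -0.03 over all genes. Cgn alone reached an unadjusted p under 0.05 (log2 fold change -0.49, edgeR adjusted p = 0.417, unadjusted p = 0.0429), beside 11.6% of all genes. Tjp1 alone was apart, beside 12.3% of all genes. The count at an unadjusted p under 0.05 was 4 without Rhy 1 and 0 when any of 6 other libraries was left out. edgeR called 0% of all genes at an adjusted p under 0.05 (smallest adjusted p 0.364), and DESeq2 and limma called 0 of the 7.

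A test of any difference among the 4 groups gave its smallest unadjusted p for F11r, at 0.00447 in edgeR (adjusted p = 0.388). Ocln, Cgn and Marveld2 followed with unadjusted p of 0.0152, 0.0204 and 0.0214. These 4 genes stood beside 11.5% of all genes, and 0% of all genes passed an adjusted p of 0.05. DESeq2 called 414 genes in this test, among them F11r (adjusted p = 0.0122) and none of the other 6, and limma called none of the 7.

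**Figure D3:**
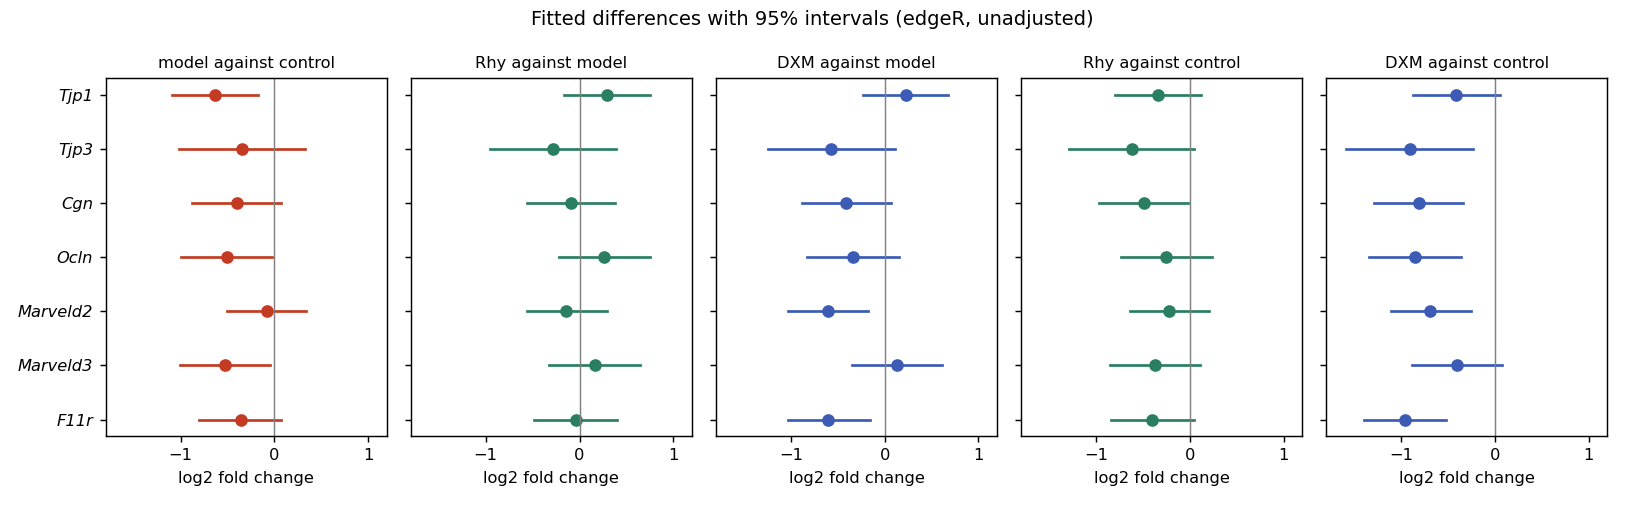
Fitted log2 fold changes of the 7 genes (points) with 95% intervals that are not adjusted for multiple tests (lines) in 5 comparisons. All points lie below 0 for model against control and for both drugs against control, and for DXM against model Tjp1 and Marveld3 lie on the other side of 0 from the other 5 genes.

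The epithelial markers moved in the same direction as many of the junction genes. The 13 markers, which include the adhesion proteins Epcam and Cdh1 and the keratins Krt8 and Krt19, summed to 20710 to 31240 CPM in the control libraries, 19810 to 22830 CPM in the model libraries, 24630 to 26820 CPM in the Rhy libraries and 18950 to 22090 CPM in the DXM libraries. All Rhy libraries were thus above all model libraries in this sum, although in the mean of log2 CPM over the markers, which weights each gene equally, the Rhy libraries (9.743 to 9.998) and the model libraries (9.667 to 9.877) overlapped. The median change of the markers on the log2 scale was -0.34 between model and control, 0.15 between Rhy and model and -0.23 between DXM and model. Against control it was -0.18 with Rhy and -0.52 with DXM. Their part in the differences of the junction genes was tested only as a covariate and as a ratio.

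Relative to the mean log2 CPM of these markers, none of the 7 genes had model libraries apart from control libraries. Over all genes 22.2% did, 3415 of them higher and 340 lower. The differences of the 7 ranged from -0.32 for Tjp1 to 0.20 for Marveld2 on the log2 scale. None was apart between Rhy and model either (12% of all genes), with differences of -0.44 for Tjp3 to 0.17 for Tjp1. Between DXM and model, 3 of the 7 genes were apart, beside 25.5% of all genes, of which 3694 were higher and 614 lower. Most genes apart were thus higher, as Tjp1 was, and fewer were lower, as Marveld2 and F11r were. Tjp1 was higher relative to the markers by 0.47, from -3.24 ± 0.20 to -2.77 ± 0.17 (SD, n = 3 each). Marveld2 was lower by -0.35, from -4.15 ± 0.05 to -4.50 ± 0.14, and F11r by -0.34, from -2.09 ± 0.06 to -2.43 ± 0.14. F11r was also apart between DXM and control, by -0.42, beside 36.3% of all genes, of which 5960 were higher and 174 lower. None of the 7 was apart between Rhy and control (12.1% of all genes). The marker mean, which is subtracted from every gene alike, was 10.02 in control, 9.744 in model, 9.864 in Rhy and 9.482 in DXM libraries.

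**Figure D4:**
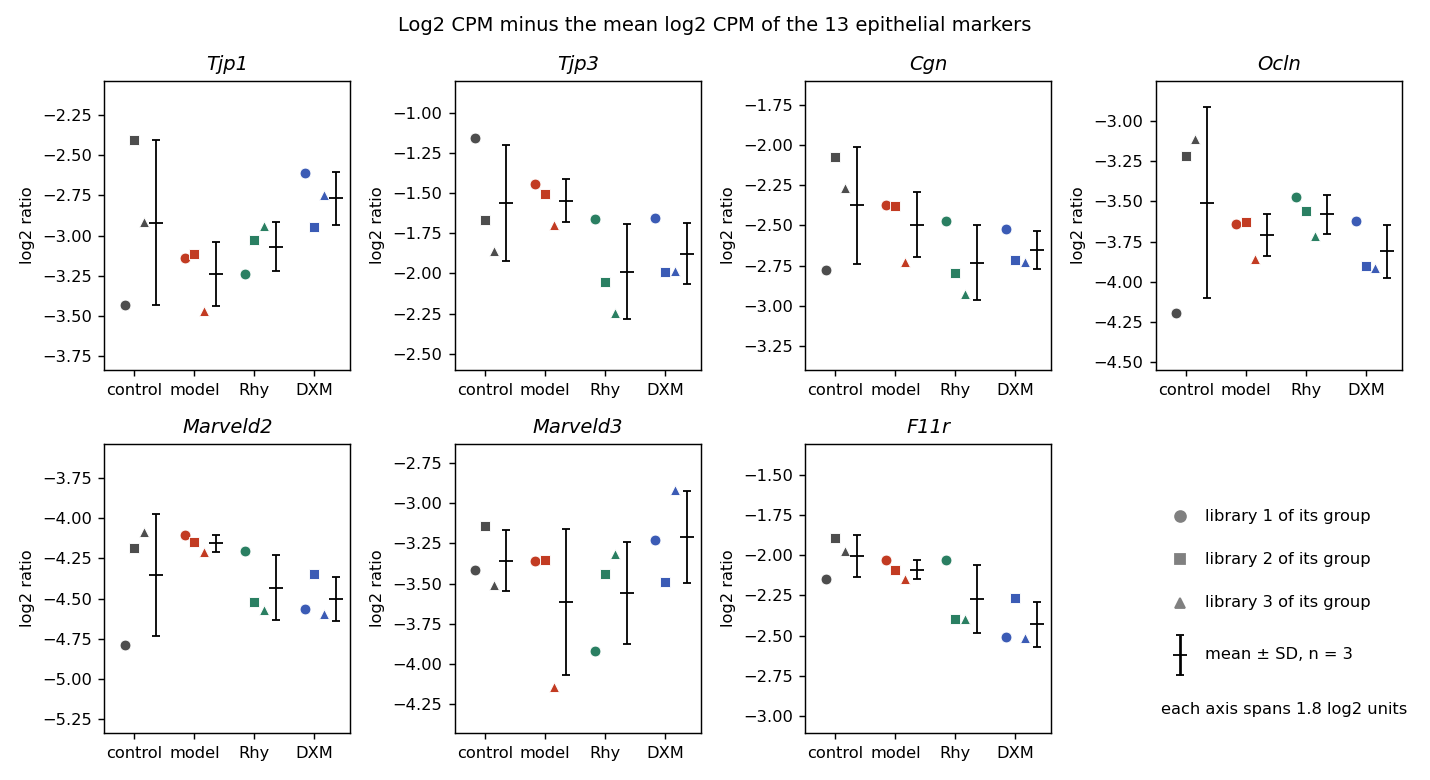
Log2 CPM of each of the 7 genes minus the mean log2 CPM of the 13 epithelial markers, by library and group, with bars for the mean ± SD; all axes span the same width. In the DXM group Tjp1 sits above, and Marveld2 and F11r below, the 3 model libraries, while the control libraries of Tjp1, Ocln and Marveld2 are spread widely.

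With the epithelial marker mean as a covariate in edgeR, Tjp1 had a log2 fold change of -0.66 between model and control (unadjusted p = 0.0292). In that fit 828 genes had an unadjusted p under 0.05, beside 1626 without the covariate, and 0 genes passed an adjusted p of 0.05. The values of Ocln (-0.51) and Marveld3 (-0.58) hardly moved in size, with an unadjusted p above 0.05 for both. The log2 fold changes of F11r and Cgn shrank to -0.09 and -0.25, and that of Tjp3 turned to 0.39. Between DXM and model, F11r came to -0.34, Marveld2 to -0.49 and Tjp3 to -0.01, and none had an unadjusted p under 0.05. Over all genes 1931 did, beside 1300 without the covariate. The covariate differs between the groups, so it also takes up a part of the difference between them.

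Within conditions, with each value set against its group mean and model 1 and 2 averaged, Tjp3 followed the epithelial marker mean across 11 samples (Pearson r = 0.92, Spearman rho = 0.88, exact permutation within groups, adjusted p = 0.0324 and 0.0243 over the 7 genes). It remained at 0.85 after the 2 samples with the most extreme marker means, relative to the median, were left out. F11r gave r = 0.72 and rho = 0.84 (exact permutation, adjusted p = 0.0567 and 0.0243), and r = 0.76 without the 2 farthest samples. For the other 5 genes the adjusted p of the exact permutation test was at least 0.749. Tjp1 had r = -0.07, Ocln -0.04 and Marveld3 -0.05, and without the 2 farthest samples Marveld2 went from 0.28 to 0.77, Cgn from 0.36 to 0.64, Ocln to 0.71 and Marveld3 to -0.60. The relation of these genes to the markers thus depended on which samples were included.

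Markers of other cell types also differed. Smooth muscle markers (10 genes) summed to 3442 to 6598 CPM in control, 3833 to 5039 CPM in model, 5873 to 6768 CPM in Rhy and 5391 to 9718 CPM in DXM libraries, so all DXM and Rhy libraries were above all model libraries. Endothelial markers (9 genes), which bear on Tjp1 and F11r, summed to 85.53 to 106 CPM, 70.99 to 79.29 CPM, 57.53 to 143.6 CPM and 83.44 to 187.9 CPM in the same order, so that all DXM libraries were above all model libraries. Macrophage markers (7 genes) summed to 92.9 to 227 CPM in control, 85.87 to 92.87 CPM in model, 33.99 to 180.5 CPM in Rhy and 108.2 to 283.7 CPM in DXM libraries. All model libraries were thus below all DXM libraries and, narrowly, below all control libraries. All 7 macrophage genes had a lower fitted level in model than in control (median -0.73 on the log2 scale). B cell markers ranged from 1.627 to 201.1 CPM, T cell markers from 8.048 to 46.13 CPM and fat cell markers from 23.74 to 307 CPM over the 12 libraries. All Rhy libraries (1.627 to 116 CPM) were below all model libraries (126.2 to 162.1 CPM) in B cell markers. Neutrophil markers (7 genes) summed to 3.348 to 687.3 CPM in control, 30.56 to 118.4 CPM in model, 24.31 to 324.2 CPM in Rhy and 198.2 to 282.6 CPM in DXM libraries, so all DXM libraries were above all model libraries. Ly6g reached 681.7 CPM and the other 6 at most 4.659 CPM, with Mpo, Retnlg and Cxcr2 below 0.41 CPM in each library. The 4 neutrophil genes tested all had a higher fitted level with DXM than with DSS alone (median 2.12 on the log2 scale), 1 of them at an unadjusted p under 0.05. All 4 had a lower fitted level with DSS alone than in control (median -1.31). Of 8 pancreatic acinar markers, 7 stayed below 0.15 CPM, and Cela1 alone was expressed. The part of these cell types in the results was not tested.

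Pairs of the 7 genes differed widely in how alike they were between libraries, with r from -0.06 to 0.915. F11r and Marveld2 were the most alike (Pearson r = 0.915 of log2 CPM over 12 libraries), followed by F11r and Cgn (0.895), Cgn and Marveld2 (0.868), Ocln and Cgn (0.865), and Tjp3 and F11r (0.824). Ocln and Marveld2, the neighbours on chromosome 13, gave 0.817. Tjp1 was most like Marveld3 (0.689), Ocln (0.651) and Cgn (0.597), and its r with Tjp3, its paralog, was 0.208. Tjp3 and Ocln gave 0.446. Marveld3 and its relative Marveld2 gave -0.06. The values share library scaling, tissue makeup and the group differences described above, so they are a description only.

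**Figure D5:**
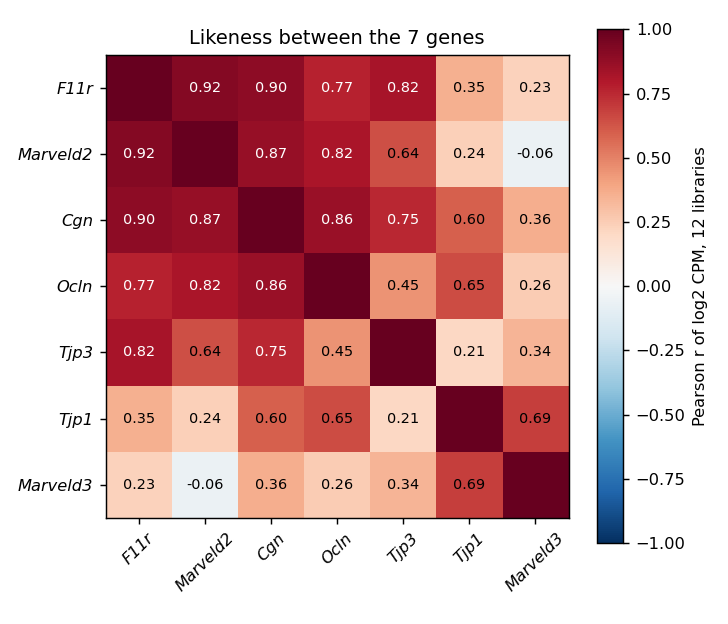
Pearson r of log2 CPM over the 12 libraries for each pair of the 7 genes, from blue (-1) to red (1). F11r, Marveld2, Cgn and Ocln form a block of values from 0.769 to 0.915, while the row of Marveld3 reaches 0.689 only with Tjp1.

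The biological coefficient of variation of the 7 genes was 0.1994 (Marveld2) to 0.2896 (Tjp3), below the median of 0.3073 over all genes tested. That median includes many genes of lower level than the 7. The highest library was 2.099 (Marveld2) to 3.392 (Tjp3) times the lowest, where the median over genes with a mean of at least 20 CPM was 2.155. Only Marveld2 was below that second median. DXM 3 was the lowest library for Tjp3, Ocln, Marveld2, F11r and Cgn, and model 3 was the lowest for Tjp1 and Marveld3.

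Among all genes tested, the most like in pattern over the 12 libraries were Gfod1 (r = 0.968), Jak2 (0.919) and Irs2 (0.912) for Tjp1, Usf1 (0.983), Csk (0.962) and Idnk (0.958) for Tjp3, and Sema4a (0.986), Dnmbp (0.974) and Erbb3 (0.973) for Cgn. They were Cttn (0.961), Klf4 (0.958) and Lima1 (0.957) for Ocln, Nol4l (0.978), Slc39a9 (0.973) and Lrrc1 (0.968) for Marveld2, Acap2 (0.957), Esyt2 (0.946) and Arid3b (0.938) for Marveld3, and Glrx (0.965), Ubap1 (0.963) and Slc25a51 (0.962) for F11r. No gene appeared under more than 1 of the 7. High values of r over 12 libraries are common among 16904 genes.

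Other junction genes were described by lists. Of 10 other membrane proteins of tight junctions, 8 had a lower fitted level in the model group than in control (median difference -0.27 on the log2 scale), and 2 of these had an unadjusted p under 0.05, beside 9.62% of all genes. Cxadr, an immunoglobulin-like adhesion receptor, was 151.2, 200.4 and 170.2 CPM in control and 113.0, 122.1 and 93.23 CPM in model libraries, which were apart (log2 fold change -0.67, edgeR adjusted p = 0.459, unadjusted p = 0.00295). Crb3, a polarity protein, had a log2 fold change of -0.54 with overlapping libraries. Of 27 other scaffold and polarity genes tested, 21 were lower in the model group (median -0.17), and 3 had an unadjusted p under 0.05, a share near the 9.62% of all genes. Arhgef2, the junction-bound activator of RhoA known as GEF-H1, was 85.51, 113.4 and 64.55 CPM in control and 40.87, 45.44 and 45.99 CPM in model libraries (log2 fold change -0.99, edgeR adjusted p = 0.459). Mpp5, the polarity scaffold Pals1, had a log2 fold change of -0.62, also with libraries apart.

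Of 17 adherens junction and desmosome genes, 13 were lower in the model group (median -0.34), and Ctnna1, which links cadherins to actin, was the only member of that list with an unadjusted p under 0.05, also near that share (log2 fold change -0.44, edgeR adjusted p = 0.499). The 12 claudins tested, the barrier and pore proteins of the junction, went both ways, with 8 lower and 4 higher. At an unadjusted p under 0.05 in edgeR, 2 of the 12 were lower and 2 higher, beside 9.62% of all genes in either direction. Cldn23 was lower in the model group by -0.99 and Cldn8 higher by 1.52 on the log2 scale, and both had libraries apart. For Cldn8 the separation was narrow, with model 3 at 20.02 CPM and control 3 at 19.49 CPM. Model 1 and model 2 were at 43.79 and 44.47 CPM. edgeR called 0 genes of these lists at an adjusted p under 0.05 in each of the comparisons.

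Between Rhy and model, the medians were 0.26 for the other membrane proteins, 0.01 for the scaffold and polarity genes, 0.09 for the claudins and 0.14 for the adherens junction and desmosome genes. At an unadjusted p under 0.05, 2 of the 12 claudins were higher, beside 3.72% of all genes, and none of the genes in the other lists reached it. Cldn1 was 0.4412, 0.4247 and 0.2978 CPM in model and 0.5993, 2.09 and 4.074 CPM in Rhy libraries (log2 fold change 2.53, edgeR adjusted p = 1), a low level throughout, and Cldn14, with a log2 fold change of 1.74, was at most 5.672 CPM in any library.

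Between DXM and model, 5 of the 10 other membrane proteins had a higher level at an unadjusted p under 0.05, beside 7.69% of all genes in either direction. Clmp was 30.33, 31.06 and 33.54 CPM in model and 44.64, 43.09 and 49.12 CPM in DXM libraries (log2 fold change 0.53, edgeR adjusted p = 0.622). Esam, an adhesion protein of endothelial junctions, had a log2 fold change of 1.28, and the endothelial claudin Cldn5 had 1.84, beside the higher endothelial markers given above. The edgeR adjusted p was 0.622 for both. Esam had libraries apart, whereas those of Cldn5 overlapped, with DXM 2 at 4.194 CPM and model 3 at 4.349 CPM. Of the 27 scaffold and polarity genes, Mpdz had the smallest unadjusted p (log2 fold change 0.62, edgeR adjusted p = 0.622), and Prkci, the polarity kinase, had -0.46 with libraries apart. In the adherens junction and desmosome list 14 of 17 were lower (median -0.32), led by Nectin2 at -0.53, and none had an unadjusted p under 0.05. Of the 12 claudins, 3 were higher and 1 lower at an unadjusted p under 0.05.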

How the data were processed

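RNA-Seq libraries of mRNA from colonic tissue were sequenced by the authors on the HiSeq X10 system. The submitters' processing notes name HISAT2 2.0.5, featureCounts 1.5.0-p3, DESeq2 1.16.1 and mm10; the strand setting and the annotation release are not given in the sources used here. The authors deposited whole-number read counts per gene without normalization, and FPKM values made from them by scaling to gene length and library size. Columns were matched to samples by title, and 0 columns belonged to samples outside the list.

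Group differences were fitted to the counts with edgeR 4.0.16 in R 4.3.3 (filterByExpr at a minimum count of 10, TMM scaling, glmQLFit and glmQLFTest, two-sided, all 12 libraries in 1 fit of group means), with Benjamini-Hochberg adjustment over 16904 genes. The standard error was the log2 fold change divided by the square root of F. CPM carried no prior count, and log2 CPM a prior count of 2. DESeq2 1.42.0 on the counts and limma 3.58.1 on log2(FPKM + 1) and log2(FPKM + 0.1) served as alternatives, beside other scalings, filters, covariates, a replicate block and each library left out. Exact permutation tests used SciPy 1.17.1. Promoters came from RefSeq (GRCm38.p6). Labels name separate mice only by sample, so p-values measure the spread between these samples.

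The fit was tested on simulated data with known changes between model and control. Of 200 genes given a 4-fold change, edgeR called 114 at an adjusted p under 0.05, with 4 false calls. Changes as small as those of the 7 genes were not simulated, so a lack of calls does not show that such changes are absent. The 7 genes, the junction and marker lists and the tests were chosen with earlier results of these data known. Named beside them are the 2 genes of each list with the smallest unadjusted p per comparison, a selection of which is given, the 3 genes most like each of the 7 by Pearson r, and single markers. The comparisons of Rhy and DXM with control were added after the values were seen. The paper's RNA-Seq methods name the control, model and Rhy groups only. Protein sequences were not used here.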

Additional observations from a re-analysis of the deposited data

How the results depend on the processing

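Of 840 fold change values of the 7 genes under alternatives, 9 reversed, in 6 of 35 results, and the other 29 results kept their direction. With the epithelial markers as a covariate, Tjp3 came to 0.39 (model against control) and 0.38 (DXM against control) and Marveld2 to 0.03 (model against control). Leaving out each library gave -0.58 to 0.05 for Tjp3 in model against control (0.05 without control 1), -0.25 to 0.08 for F11r (0.03 without model 3, 0.04 without Rhy 2, 0.08 without Rhy 3) and -0.31 to 0.06 for Cgn (0.06 without Rhy 3) in Rhy against model, and -0.02 to 0.25 for Marveld3 in DXM against model (-0.02 without model 3). Members called at an adjusted p under 0.05 stayed at 0 except with DESeq2, which gave 4 for DXM against control and 1 for any difference among the 4 groups. Pooled over conditions, the Pearson r with the epithelial markers was 0.35 for Tjp1, 0.66 for Ocln and 0.33 for Marveld3, and with RLE scaling 0.01 for Ocln. The cause of these changes was not tested.

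Over all genes, where edgeR called 0, DESeq2 called 46 (model against control), 52 (DXM against model), 5 (Rhy against model), 33 (Rhy against control), 1051 (DXM against control) and 414 (any difference). With genes of any count edgeR called 1, 1 and 13 in the comparisons of model, Rhy and DXM with control and 12 for any difference. With only the groups compared it called 1 (model against control) and 2 (DXM against model). limma on log2(FPKM + 0.1) called 2 (Rhy against model), 2 (DXM against model) and 3 (any difference), and on log2(FPKM + 1) with genes of any value 1 (DXM against model). Leaving out each library gave 0 to 4 calls for DXM against control and 0 to 1 for any difference, Rhy against model, model against control and Rhy against control, and none for DXM against model.

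At an unadjusted p under 0.05, the number of genes was 828 to 2811 for model against control, 999 to 2938 for Rhy against control, 1509 to 4075 for DXM against control, 283 to 1093 for Rhy against model, 537 to 2514 for DXM against model and 1142 to 2824 for any difference. With model 1 and 2 as 1 library it was 866 (model against control), 283 (Rhy against model) and 736 (DXM against model), and 2 members each remained under 0.05 in model against control and DXM against model. With the epithelial covariate, 1 member was under 0.05 in model against control (Tjp1), 1 in Rhy against model (Tjp3, -0.61) and 0 in both comparisons of DXM. Upper-quartile scaling moved the median of all genes to 0.15 in DXM against control. The share of higher genes among those under 0.05 was 53.1% with TMM and 40.5% with RLE in model against control, 63.6% and, with upper-quartile scaling, 75.4% in DXM against model, and 46% and 61.2% in DXM against control. The 7 directions were the same under these scalings.

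Whether the replicate numbers pair the samples was not settled. The deviations of 18 same-numbered pairs correlated from -0.31 to 0.363 and 6 exceeded 0.1, but pairs of unlike numbers were not computed beside them. With the replicate block, Tjp1 had a log2 fold change of -0.62 in model against control and 0.29 in Rhy against model, and 0 members were called. Members at an unadjusted p under 0.05 went from 3 to 2 in model against control. They went from 2 to 3 in DXM against model and from 4 to 5 for any difference. For Tjp3 in DXM against model, the unadjusted p in edgeR went from 0.0914 to 0.0171.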
